A study of Homo sapiens with 23 samples.

Results

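The genes of cholesterol and fatty acid synthesis were followed through every *THUMPD3* knockdown of the series. They are 36 listed targets and regulators of the sterol regulatory element-binding proteins (SREBPs), taken by name from a list, among the 61806 genes of the table of the first libraries and the 42901 of that of the deep libraries. The list holds 19 genes of the sterol branch, 5 regulators and 12 genes of the fatty acid branch. This list and the further lipid lists below were chosen with earlier results of these data known. All 36 were found in both tables and passed the filter on low counts in every comparison.

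SREBPs are made as membrane proteins of the endoplasmic reticulum, where SCAP holds them. When sterols are scarce, SCAP carries them to the Golgi, proteases release their amino-terminal part, and this part enters the nucleus and switches on the genes that make cholesterol and fatty acids. When sterols are plentiful, the INSIG proteins keep SCAP and SREBP in the endoplasmic reticulum. *SREBF2* encodes the form that acts mostly on sterol genes, and *SREBF1* the forms that act more on fatty acid genes. Lung cancer cells, like other dividing cells, use both branches to build membranes.

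A549 is an established line of human lung adenocarcinoma cells. THUMPD3, a methyltransferase that places m2G in tRNA, was depleted with the siRNA siD3 #3, harvested on day 5, or with an inducible shRNA, shD3 #1 or shD3 #4, harvested on day 6. The shRNAs came from lentiviral pLKO-Tet-On vectors in puromycin-selected cells. The study's methods contrast untreated with treated samples, so with the shRNAs an effect of the inducer cannot be told apart from that of the knockdown. Each knockdown had its own controls, named siControl, sh1Control and sh4Control. Each of these groups had 3 libraries, save siControl with 2, which made 17. A further 6 libraries, 3 of deep shD3 #1 and 3 of deep sh1Control, were sequenced more deeply, with no harvest day given. Whether they came from the same RNA as the first libraries is not given either. The 2 comparisons of shD3 #1 are therefore not counted as independent knockdowns. The labels call all controls wild type and all knockdowns *THUMPD3* knockdown. Replicates are described as biological, but the labels do not say whether they were separate cultures, so p-values measure the spread between these libraries.

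Total counts ranged from 9854294 to 22101059 in the first libraries, the lowest being replicate 3 of shD3 #1. They ranged from 51101905 to 59974740 in deep sh1Control and from 27285889 to 35458367 in deep shD3 #1. Every deep knockdown library thus had fewer counts than every deep control. *THUMPD3* itself fell in each comparison, by a log2 value of -0.97 (shD3 #1), -1.01 (deep shD3 #1), -1.67 (shD3 #4) and -2.54 (siD3 #3), each time without overlap of the groups (exact two-sided permutation test, p = 0.1 in each, the smallest these group sizes allow). Of the epithelial markers, *KRT8* and *KRT18* were at 963 cpm (counts scaled to the size of each library) or more in all 23 libraries, and all 5 were detected. The alveolar type 2 markers *NKX2-1*, *SFTPA1*, *SFTPB* and *SFTPC* had at most 6 counts in any library. The other marker genes of blood, stromal, liver and fat cells had at most 64 counts in any library, with 2 exceptions. *COL1A1* ranged from 2.40 to 27.8 cpm and *CD68* from 0 to 97.7 cpm. These ranges pool all 23 libraries, so a difference in counting between the first and the deep libraries may enter them.

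Promoters of the listed genes were read from RefSeq (GRCh38.p14, 250 bases before to 50 after each start) and searched on both strands for the letters that SREBPs and their partners bind. Of the 36 genes, 32 had a promoter entry. The sterol regulatory element, written strictly as TCACNCCAC, stood in the promoter of 1 of the 32, *SREBF2*, against 1.13% of all 35116 promoters. With its seventh letter left free, as TCACNCNAC, which includes the first pattern, it stood in 5 of 32 genes (*ACSS2*, *FADS2*, *FDPS*, *HSD17B7* and *SREBF2*) and in 2.55% of all promoters. The E-box CACGTG stood in 5 of 32 (7.26% of all promoters) and the GC box GGGCGG in 30 of 32 (45.0%). CCAAT, the letters bound by NF-Y, which works beside SREBPs, stood in 22 of 32 (34.6%). Counted by gene rather than by promoter, since several genes have more than 1, the shares over all 27305 genes were 1.39%, 3.13%, 8.77%, 48.3% and 39.7% in that order. Sites with other letters or outside these windows were missed, so a gene without a match may still have an element.

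These 3 promoters are shown because they belong to a factor of the pathway and to an enzyme of each branch, *FDPS* and *FADS2*, that fell in both comparisons of shD3 #1. Capitals mark the match to TCACNCNAC, and the freer pattern and *SREBF2* were chosen after the first search had been seen. The *SREBF2* promoter lies at chr22:41832855-41833154, plus strand, with its match beginning at -133 from the start. That of *FDPS* lies at chr1:155308616-155308915, plus strand, with its match at -140, and the upstream one of *FADS2* at chr11:61815953-61816252, plus strand, with its match at -220. The matches of *FDPS* and *FADS2* have the same letters, and that of *SREBF2* alone fits the stricter pattern.
*SREBF2* promoter: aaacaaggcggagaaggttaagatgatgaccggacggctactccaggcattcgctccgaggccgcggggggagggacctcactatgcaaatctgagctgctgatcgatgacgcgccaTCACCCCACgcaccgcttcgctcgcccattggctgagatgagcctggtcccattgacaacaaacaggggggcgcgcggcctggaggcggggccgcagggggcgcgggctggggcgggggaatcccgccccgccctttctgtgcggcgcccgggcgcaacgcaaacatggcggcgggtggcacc
*FDPS* promoter: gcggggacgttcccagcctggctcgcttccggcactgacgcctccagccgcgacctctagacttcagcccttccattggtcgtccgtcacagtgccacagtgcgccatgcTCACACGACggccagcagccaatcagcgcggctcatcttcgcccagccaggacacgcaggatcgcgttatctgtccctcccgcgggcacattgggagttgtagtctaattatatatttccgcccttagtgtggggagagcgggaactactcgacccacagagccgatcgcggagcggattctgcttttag
*FADS2* promoter: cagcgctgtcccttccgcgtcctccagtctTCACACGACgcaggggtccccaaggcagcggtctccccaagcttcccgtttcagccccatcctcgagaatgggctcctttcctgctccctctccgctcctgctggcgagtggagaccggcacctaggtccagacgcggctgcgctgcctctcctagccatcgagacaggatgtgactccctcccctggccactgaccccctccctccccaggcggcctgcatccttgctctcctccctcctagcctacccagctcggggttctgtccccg

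The 2 tables gave different levels for several members. In control cells of the same kind, 28 of the 36 genes had levels within 2.0 times of each other between sh1Control and deep sh1Control, and 8 did not. *ACACA* had a mean of 213 cpm in sh1Control and 3.39 in deep sh1Control, and *LSS* had 47.0 and 13.1 cpm. *CYP51A1* stood the other way, at 5.87 and 209.9 cpm, as did *FASN* at 149.5 and 1302. *SREBF1*, *ELOVL6*, *SREBF2* and *EBP* were 3.31, 2.67, 2.32 and 2.09 times higher in the deep controls. In GENCODE 44, 68.2% of the exonic bases of *CYP51A1* (chr7:92084987-92134803, minus strand) and 36.4% of those of *EBP* (chrX:48521799-48528716, plus strand) are shared with another gene on the same strand, whereas *ACACA* (chr17:37084992-37406836, minus strand) and *FASN* (chr17:82078338-82098294, minus strand) share none. On the opposite strand, exonic bases are shared by *HMGCS1* (37.7%), *ACAT2* (22.2%), *FDPS* (18.6%), *IDI1* (15.0%) and *TMEM97* (12.3%). The library kit kept strand, but which strand was counted is not given, so reads of these genes and their antisense partners may be mixed. *HSD17B7* and *FDPS* also have pseudogene copies that can share reads. Whether shared exons set these counts was not tested. Levels were therefore not compared between the tables, and the counts of *ACACA* and *LSS* in the deep table and of *CYP51A1* and *FASN* in the first are uncertain.

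**Figure D1:**
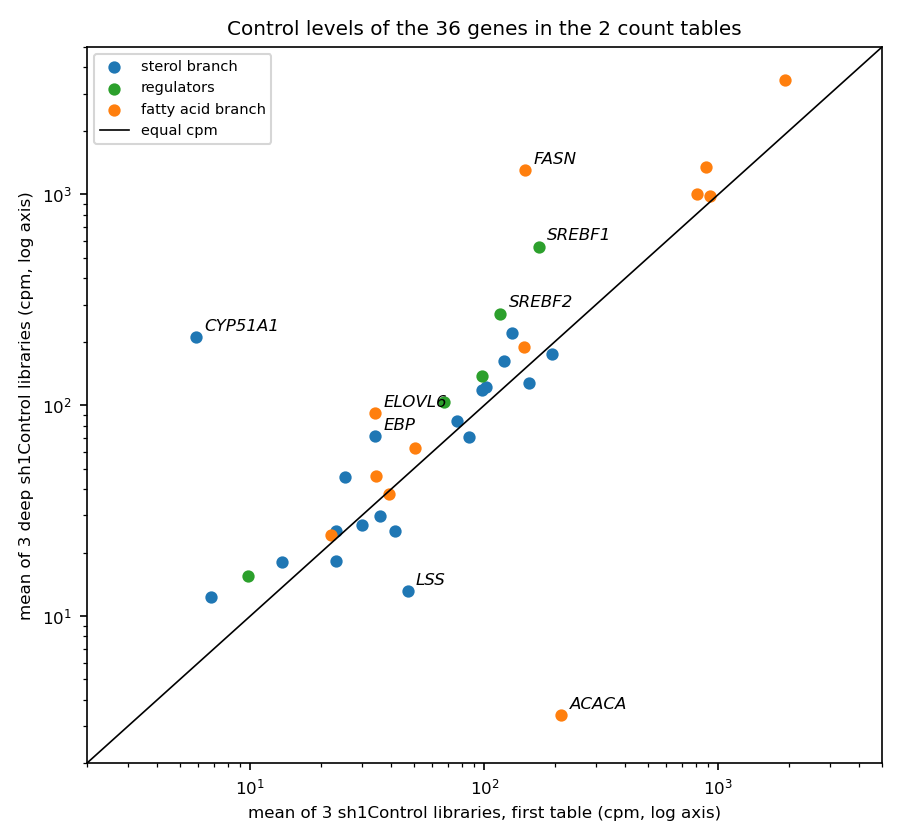
Mean control level of each of the 36 genes in the first table (x axis, 3 sh1Control libraries) against the deep table (y axis, 3 deep sh1Control libraries), in cpm on log axes, with the line of equal values. Most points lie near the line, while *CYP51A1* and *FASN* lie far above it and *ACACA* and *LSS* far below, and the 8 named genes differ by more than 2.0 times.

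Per kilobase of exon, the fatty acid genes led in sh1Control. *SCD*, the desaturase that makes oleate, stood at 368 cpm per kb, *ACLY*, which makes cytosolic acetyl-CoA from citrate, at 177, *FADS2* at 83.5 and *FADS1* at 79.5. The sterol genes with the highest levels per kb were *TMEM97* at 52.7 and *SQLE* at 45.4. At the low end were *INSIG2* at 2.47, *AACS* at 2.44 and *CYP51A1*, whose count is uncertain, at 1.41. These are levels of mRNA in control cells, over the union of annotated exons.

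Genes of both branches were lower with shD3 #1, and none was called with shD3 #4. With siD3 #3, 3 were called lower, a count near the share of all genes. Fold changes are given on the log2 scale with their SE. A gene was called when its adjusted p in edgeR's quasi-likelihood test was under 0.05 and its change at least 1.5-fold in either direction. In shD3 #1, 19 of the 36 genes were called lower and 1 higher, against 14.6% and 14.5% of the 16456 genes tested. In deep shD3 #1, 9 were called lower and 2 higher, against 14.1% and 15.0% of 18763 genes. In shD3 #4, 0 were called in either direction by edgeR or by DESeq2, against 4.49% lower and 8.0% higher of 16493 genes. Of the 36, 11 had an adjusted p under 0.05 with smaller changes, while 6725 of the 16493 genes had such a p with changes of any size. At an unadjusted p under 0.05, 11 of the 36 were higher and 4 lower, beside 3914 and 4014 of the 16493 genes. In siD3 #3, 3 were called lower and 0 higher by edgeR (DESeq2 called 4 lower and 0 higher), against 9.42% and 12.5% of 17032 genes. The count called lower thus lies near the share of all genes. At an unadjusted p under 0.05, 4 of the 36 had a higher value, beside 3873 of the 17032 genes. As the genes were chosen with earlier results known, the shares of all genes describe these counts and do not test them. Bulk libraries cannot tell fewer cells with a transcript from less of it per cell.

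The median log2 fold change of the 36 genes was -0.62 (shD3 #1), -0.43 (deep shD3 #1), 0.10 (shD3 #4) and -0.10 (siD3 #3), where that of all genes tested was -0.01, -0.02, 0.01 and 0.03. By libraries, all knockdown values lay below all control values for 27 genes in shD3 #1 and above for 4, against 31.2% and 30.8% of all genes. For deep shD3 #1 these were 25 and 7, against 34.0% and 33.2%. In shD3 #4 they were 4 below and 9 above, against 24.7% in each direction, and in siD3 #3 13 below and 5 above, against 29.5% and 30.5%. Of the 36 genes, 22 were called in at least 1 comparison, 10 in at least 2 and 2, *SCD* and *TMEM97*, in 3. Those 3 comparisons were shD3 #1, deep shD3 #1 and siD3 #3, so they cover only 2 knockdown reagents. No gene was called in opposite directions, and 10 genes were called the same way in shD3 #1 and in deep shD3 #1, out of 20 called in the first and 11 in the second. Among the 13539 gene symbols tested in all 4 comparisons, 49.6% were called in at least 1, 26.3% in at least 2, 10.0% in 3 or more and 4.72% in opposite directions, beside 61.1%, 27.8%, 5.56% and 0% of the 36 genes. Of these symbols, 58.3% of those called in shD3 #1 and 65.6% of those called in deep shD3 #1 were called the same way in both.

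**Figure D2:**
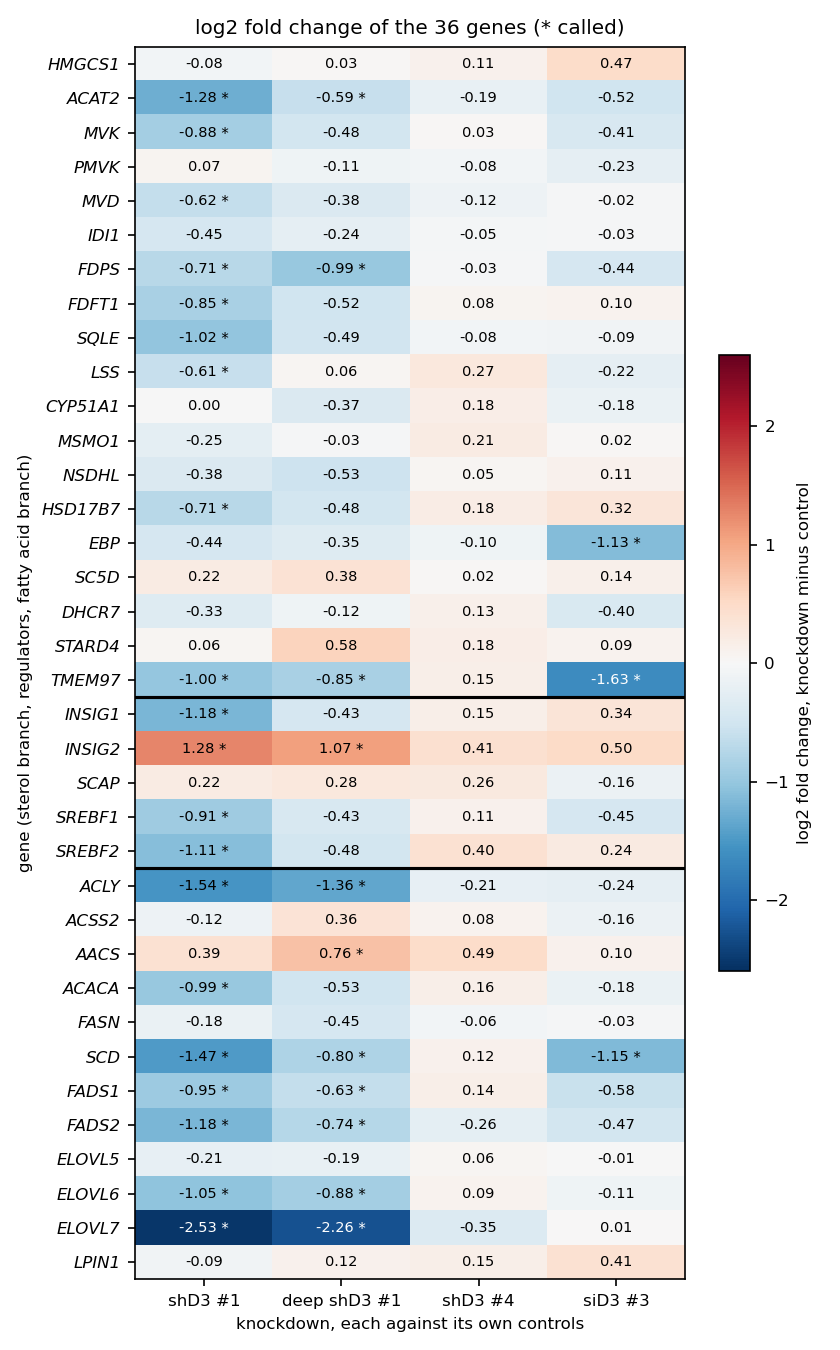
Log2 fold change of each of the 36 genes (rows, grouped as sterol branch, regulators and fatty acid branch) in the 4 comparisons (columns), with blue for lower and red for higher in the knockdown and a star on called values. The shD3 #1 and deep shD3 #1 columns are mostly blue, led by *ELOVL7* at -2.53 and -2.26, with *INSIG2* in red, whereas the shD3 #4 column is pale.

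The proliferation marker *MKI67* moved too. Its log2 fold change was -1.27 for shD3 #1, -0.70 for deep shD3 #1, -0.22 for shD3 #4, which was not called, and -3.34 for siD3 #3. It fell most in siD3 #3, where 3 of the 36 synthesis genes were called. Its part in these changes was not tested.

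Among the regulators, *SREBF1*, *SREBF2* and *INSIG1* fell in shD3 #1 while *INSIG2* rose. *INSIG1*, itself a sensitive target of SREBPs, had 98.0, 101 and 94.4 cpm in the sh1Control libraries and 43.3, 40.1 and 46.1 cpm in the shD3 #1 libraries, a log2 fold change of -1.18 ± 0.07 (adjusted p = 9.97e-10), in edgeR's quasi-likelihood test with Benjamini-Hochberg adjustment. The groups were far apart, with no overlap. *SREBF2* had 114, 116 and 120.5 cpm in the sh1Control libraries and 58.6, 54.3 and 48.6 cpm in the shD3 #1 libraries (log2 fold change -1.11 ± 0.07, adjusted p = 2.83e-09), and *SREBF1* 159, 173 and 179 cpm in the sh1Control libraries and 94.9, 95.4 and 80.2 cpm in the shD3 #1 libraries (log2 fold change -0.91 ± 0.07, adjusted p = 3.93e-08). Neither gene's groups overlapped. *INSIG2*, which encodes the other anchor protein, had 9.39, 11.2 and 8.67 cpm in the sh1Control libraries and 21.8, 23.2 and 26.3 cpm in the shD3 #1 libraries, a rise of 1.28 ± 0.11 (adjusted p = 5.59e-08). *SCAP* changed little, by 0.22 ± 0.06, with an adjusted p of 0.00688 and no overlap.

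The deep libraries showed the same directions with smaller falls. There *INSIG2* was the called regulator, with 15.5, 15.0 and 16.2 cpm in the deep sh1Control libraries and 32.5, 31.8 and 33.8 cpm in the deep shD3 #1 libraries (log2 fold change 1.07 ± 0.06, adjusted p = 8.37e-10). *INSIG1* had 139, 138 and 138 cpm in the deep sh1Control libraries and 103, 99.2 and 105 cpm in the deep shD3 #1 libraries, and its change of -0.43 ± 0.04 (adjusted p = 4.20e-07) passed the p threshold but not that of size. The same held for *SREBF1* at -0.43 ± 0.04 (adjusted p = 5.89e-07) and *SREBF2* at -0.48 ± 0.04 (adjusted p = 1.14e-07), whose libraries did not overlap either. *SREBF2* had 272, 272 and 270.4 cpm in the deep sh1Control libraries and 201, 195 and 189 cpm in the deep shD3 #1 libraries, and *SREBF1* 568, 562 and 562 cpm in the deep sh1Control libraries and 433, 422 and 405 cpm in the deep shD3 #1 libraries. Whether the first and deep libraries differed was not tested, since they lie in separate tables.

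In shD3 #4 all 5 regulators had positive changes and 3 of them passed the p threshold, none called. Of the 16493 genes tested there, 8388 had positive changes and 6725 passed the p threshold. The median of the 5 regulators was 0.26, of a size near the differences between their controls. Those were -0.20 for sh4Control replicate 1 minus 3 and -0.22 for 2 minus 3 (medians of the 5). *SREBF2* had 97.1, 104 and 111 cpm in the sh4Control libraries and 135, 139 and 136 cpm in the shD3 #4 libraries (log2 fold change 0.40 ± 0.06, adjusted p = 1.84e-05), and all shD3 #4 values lay above all controls. *INSIG2* had 6.81, 7.30 and 8.36 cpm in the sh4Control libraries and 9.55, 10.4 and 9.92 cpm in the shD3 #4 libraries (log2 fold change 0.41 ± 0.11, adjusted p = 0.00357), also without overlap. *INSIG1* had 92.0, 87.2 and 105 cpm in the sh4Control libraries and 116, 97.8 and 103 cpm in the shD3 #4 libraries and *SREBF1* 121, 132 and 154 cpm in the sh4Control libraries and 158, 135 and 146 cpm in the shD3 #4 libraries, and in both the groups overlapped.

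In siD3 #3 no regulator was called. *INSIG2* had 7.46 and 6.10 cpm in the siControl libraries and 9.58, 9.59 and 9.61 cpm in the siD3 #3 libraries (log2 fold change 0.50 ± 0.15, adjusted p = 0.04), without overlap. *SREBF1* had 177 and 142 cpm in the siControl libraries and 134, 118 and 99.6 cpm in the siD3 #3 libraries (log2 fold change -0.45 ± 0.15, adjusted p = 0.0489), all below the controls, and *SREBF2* 103 and 82.2 cpm in the siControl libraries and 109.6, 109.8 and 110.1 cpm in the siD3 #3 libraries (log2 fold change 0.24 ± 0.11, adjusted p = 0.125), all above. *INSIG1* was uneven, with 131 and 110.4 cpm in the siControl libraries and 124, 128 and 208 cpm in the siD3 #3 libraries, so that replicate 3 stood well above the other knockdown libraries and the groups overlapped.

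The mevalonate pathway, which turns acetyl-CoA into isoprenoid units, had 4 of its 7 listed genes called lower in shD3 #1, against 14.6% of all genes. *ACAT2*, the cytosolic thiolase of the first step, had 41.9, 40.0 and 42.3 cpm in the sh1Control libraries and 16.3, 16.7 and 18.7 cpm in the shD3 #1 libraries (log2 fold change -1.28 ± 0.08, adjusted p = 1.01e-09). This was the largest fall of the sterol branch there, and the groups did not overlap. *MVK*, mevalonate kinase, fell by 0.88 ± 0.08 on the log2 scale, *FDPS*, which makes farnesyl diphosphate, by 0.71 ± 0.06, and *MVD*, the decarboxylase, by 0.62 ± 0.08.

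*HMGCS1*, the synthase that commits acetoacetyl-CoA to the pathway and a classical SREBP target, did not follow. It had 120.0, 122 and 123 cpm in the sh1Control libraries and 119, 119 and 106 cpm in the shD3 #1 libraries (log2 fold change -0.08 ± 0.06, adjusted p = 0.298), which did not pass although the groups did not overlap. In deep shD3 #1 it had 161, 164 and 161 cpm in the deep sh1Control libraries and 172, 167 and 159 cpm in the deep shD3 #1 libraries (log2 fold change 0.03 ± 0.04, adjusted p = 0.511), and these overlapped. As 37.7% of the exonic bases of *HMGCS1* are shared on the opposite strand, its reads may be mixed with those of antisense partners. *IDI1*, the isopentenyl isomerase, was intermediate, with 77.7, 76.8 and 73.8 cpm in the sh1Control libraries and 53.2, 54.5 and 60.3 cpm in the shD3 #1 libraries (log2 fold change -0.45 ± 0.07, adjusted p = 3.66e-05), past the p threshold only. Its deep values were 82.1, 79.9 and 90.2 cpm in the deep sh1Control libraries and 73.0, 69.9 and 71.0 cpm in the deep shD3 #1 libraries (log2 fold change -0.24 ± 0.05, adjusted p = 0.00107), lower in every knockdown library. *PMVK*, phosphomevalonate kinase, passed in no comparison, with changes between -0.23 and 0.07.

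Among the deep libraries *FDPS* had the largest fall of the sterol branch, with 118, 120.0 and 117 cpm in the deep sh1Control libraries and 54.4, 59.2 and 64.8 cpm in the deep shD3 #1 libraries (log2 fold change -0.99 ± 0.06, adjusted p = 1.70e-09). *ACAT2* was the other called gene of the pathway, with 23.9, 24.6 and 27.2 cpm in the deep sh1Control libraries and 15.6, 16.4 and 18.1 cpm in the deep shD3 #1 libraries (log2 fold change -0.59 ± 0.07, adjusted p = 4.58e-06). Both were lower in every knockdown library, though *ACAT2* lay close to the threshold of size and lost its call without deep sh1Control replicate 3 (-0.53) or deep shD3 #1 replicate 1 (-0.55) or 2 (-0.58).

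In shD3 #4, no mevalonate gene was called, and *ACAT2* had the most negative value of the sterol branch, with 48.1, 48.0 and 44.8 cpm in the sh4Control libraries and 38.3, 47.0 and 38.3 cpm in the shD3 #4 libraries (log2 fold change -0.19 ± 0.08, adjusted p = 0.0458), with overlap in the second knockdown library. *HMGCS1* had 130.0, 121 and 115 cpm in the sh4Control libraries and 141, 129 and 124 cpm in the shD3 #4 libraries and *IDI1* 83.4, 85.3 and 75.8 cpm in the sh4Control libraries and 77.9, 80.3 and 78.7 cpm in the shD3 #4 libraries, and both overlapped. In siD3 #3, *HMGCS1* had 160.2 and 110.2 cpm in the siControl libraries and 171, 179 and 211 cpm in the siD3 #3 libraries (log2 fold change 0.47 ± 0.17, adjusted p = 0.066), which was the highest value of the sterol branch and did not pass, although all 3 knockdown values lay above both controls. *IDI1* had 123 and 99.6 cpm in the siControl libraries and 101, 114 and 111 cpm in the siD3 #3 libraries, with overlap.

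All 3 genes that lead from farnesyl diphosphate to lanosterol were called lower in shD3 #1, where 14.6% of all genes tested were. *SQLE*, squalene epoxidase, a rate-limiting step, had 194, 206 and 186 cpm in the sh1Control libraries and 96.0, 97.5 and 95.9 cpm in the shD3 #1 libraries (log2 fold change -1.02 ± 0.06, adjusted p = 1.27e-09), with no overlap. *FDFT1*, squalene synthase, changed by -0.85 ± 0.07 (adjusted p = 2.15e-08) and *LSS*, lanosterol synthase, by -0.61 ± 0.08 (adjusted p = 7.13e-06). *LSS* lay just past the threshold of size and lost its call without sh1Control replicate 3 (-0.56) or shD3 #1 replicate 2 (-0.56), as *MVD* did without shD3 #1 replicate 3 (-0.57).

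The deep libraries of *SQLE* had 174, 178 and 175 cpm in the deep sh1Control libraries and 119, 129 and 127 cpm in the deep shD3 #1 libraries (log2 fold change -0.49 ± 0.04, adjusted p = 1.56e-07). The libraries did not overlap, but neither *SQLE* nor *FDFT1* (-0.52 ± 0.05) reached the threshold of size. *LSS* did not fall there, with 12.0, 13.8 and 13.5 cpm in the deep sh1Control libraries and 12.7, 14.8 and 13.5 cpm in the deep shD3 #1 libraries (log2 fold change 0.06 ± 0.08, adjusted p = 0.541), which overlapped. In shD3 #4, *LSS* had the largest positive change of the sterol branch, with 41.6, 46.5 and 49.4 cpm in the sh4Control libraries and 56.8, 52.5 and 56.2 cpm in the shD3 #4 libraries (log2 fold change 0.27 ± 0.07, adjusted p = 0.00352), not called, and *SQLE* had 172, 168 and 184 cpm in the sh4Control libraries and 169, 171 and 155 cpm in the shD3 #4 libraries, which overlapped. In siD3 #3, *SQLE* had 225 and 166 cpm in the siControl libraries and 158, 160.1 and 233 cpm in the siD3 #3 libraries (log2 fold change -0.09 ± 0.20, adjusted p = 0.767), where each group held 1 library well above its others.

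From lanosterol to cholesterol, 1 of 7 listed genes was called in shD3 #1, *HSD17B7*, a sterol ketone reductase, at -0.71 ± 0.12 (adjusted p = 1.26e-04). That count lies near the share of all genes called lower there, 14.6%. *NSDHL*, which works beside it in the removal of methyl groups, *EBP*, the sterol isomerase, *DHCR7*, a reductase of the last steps, and *MSMO1*, the methyl oxidase, passed the p threshold with log2 fold changes between -0.44 and -0.25. *SC5D*, the desaturase of these steps, had the highest value of the sterol branch, with 34.9, 37.6 and 34.6 cpm in the sh1Control libraries and 41.5, 42.8 and 40.5 cpm in the shD3 #1 libraries (log2 fold change 0.22 ± 0.07, adjusted p = 0.0104), not called but without overlap. It stood above its controls in deep shD3 #1 as well (0.38 ± 0.06). *CYP51A1*, the demethylase, had a log2 fold change of -0.37 in the deep table, where it was past the p threshold, and passed in no comparison of the first.

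*EBP* was called in siD3 #3 alone among the 7. It had 37.5 and 28.8 cpm in the siControl libraries and 13.5, 14.7 and 17.4 cpm in the siD3 #3 libraries (log2 fold change -1.13 ± 0.16, adjusted p = 0.00138), and no library of the groups overlapped. Its fall was larger in siD3 #3 than in shD3 #4, by -1.02 ± 0.17 (adjusted p = 1.14e-04), and than in shD3 #1, by -0.67 ± 0.17 (adjusted p = 0.00412). As 36.4% of its exonic bases belong to a second annotated gene as well, its count is uncertain.

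*TMEM97* is the sigma-2 receptor, a membrane protein of endosomal cholesterol handling (chr17:28319200-28328685, plus strand). It was 1 of the 2 genes called in 3 comparisons, of which 2 used the same shRNA. It had 159, 153 and 151 cpm in the sh1Control libraries and 74.9, 73.5 and 83.5 cpm in the shD3 #1 libraries (log2 fold change -1.0 ± 0.07, adjusted p = 3.22e-09). In siD3 #3 it had 181 and 140.5 cpm in the siControl libraries and 54.1, 56.3 and 45.1 cpm in the siD3 #3 libraries (log2 fold change -1.63 ± 0.14, adjusted p = 1.21e-04), the largest fall of all 36 genes there. In deep shD3 #1 it had 131, 124 and 127 cpm in the deep sh1Control libraries and 67.6, 69.4 and 75.3 cpm in the deep shD3 #1 libraries (log2 fold change -0.85 ± 0.05, adjusted p = 2.18e-09), and no knockdown library of these 3 comparisons reached its controls. In shD3 #4 it had 139.7, 137 and 153 cpm in the sh4Control libraries and 163, 157 and 155 cpm in the shD3 #4 libraries (log2 fold change 0.15 ± 0.06, adjusted p = 0.0693), slightly above the controls. *STARD4*, a soluble sterol carrier, was not called. It had the largest positive change of the sterol branch in deep shD3 #1, with 27.7, 25.1 and 28.1 cpm in the deep sh1Control libraries and 40.7, 36.2 and 43.9 cpm in the deep shD3 #1 libraries (log2 fold change 0.58 ± 0.07, adjusted p = 4.63e-06), just under the threshold of size, which it crossed without either of deep sh1Control replicates 1 and 3 or without deep shD3 #1 replicate 2 (up to 0.65).

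In the fatty acid branch, supply of acetyl-CoA was split. *ACLY* had 919, 922 and 928 cpm in the sh1Control libraries and 319, 331 and 302 cpm in the shD3 #1 libraries (log2 fold change -1.54 ± 0.06, adjusted p = 6.70e-12) and 1007, 969 and 987 cpm in the deep sh1Control libraries and 379, 389.7 and 389.8 cpm in the deep shD3 #1 libraries (log2 fold change -1.36 ± 0.04, adjusted p = 3.46e-12). The knockdown libraries held 34.4% and 39.1% of the control level, with no overlap. *AACS*, which makes acetoacetyl-CoA from ketone bodies, moved the other way. It had 37.1, 41.2 and 38.9 cpm in the sh1Control libraries and 52.6, 48.1 and 53.1 cpm in the shD3 #1 libraries (log2 fold change 0.39 ± 0.07, adjusted p = 2.05e-04), not called, and 37.8, 35.3 and 40.7 cpm in the deep sh1Control libraries and 65.8, 64.6 and 61.7 cpm in the deep shD3 #1 libraries (log2 fold change 0.76 ± 0.06, adjusted p = 3.86e-08), called higher. In shD3 #4 it had 35.0, 35.1 and 37.3 cpm in the sh4Control libraries and 48.5, 49.6 and 52.4 cpm in the shD3 #4 libraries (log2 fold change 0.49 ± 0.07, adjusted p = 1.95e-06), the largest positive change of the 36 genes there, and again the groups did not overlap. *ACSS2*, which makes acetyl-CoA from acetate, was called in no comparison.

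Of the enzymes that build the chain, *ACACA*, acetyl-CoA carboxylase, had 213, 222 and 204 cpm in the sh1Control libraries and 113, 114 and 93.8 cpm in the shD3 #1 libraries (log2 fold change -0.99 ± 0.07, adjusted p = 1.71e-08), with no overlap. In the deep table it had 3.35, 3.39 and 3.43 cpm in the deep sh1Control libraries and 2.58, 1.94 and 2.49 cpm in the deep shD3 #1 libraries (log2 fold change -0.53 ± 0.15, adjusted p = 0.0055), lower in every knockdown library but counted at a level that is uncertain. *FASN*, fatty acid synthase, had 150.4, 139 and 159 cpm in the sh1Control libraries and 158, 142 and 92.3 cpm in the shD3 #1 libraries (log2 fold change -0.18 ± 0.13, adjusted p = 0.251), where replicate 3, the least deeply sequenced, lay below the rest. In the deep table, where *FASN* was counted at a far higher level, it had 1311, 1330.1 and 1264 cpm in the deep sh1Control libraries and 930.0, 1008 and 929.6 cpm in the deep shD3 #1 libraries (log2 fold change -0.45 ± 0.05, adjusted p = 1.52e-06), without overlap and under the threshold of size. In shD3 #4, *ACACA* had 199, 185 and 206 cpm in the sh4Control libraries and 227, 212 and 219.9 cpm in the shD3 #4 libraries, all above the controls, and *FASN* had 116, 125 and 158 cpm in the sh4Control libraries and 141, 116 and 125 cpm in the shD3 #4 libraries. In siD3 #3, *ACACA* had 157 and 165 cpm in the siControl libraries and 148, 141 and 138 cpm in the siD3 #3 libraries, all below, and *FASN* had 201 and 112 cpm in the siControl libraries and 156, 137 and 166 cpm in the siD3 #3 libraries. None of these 4 was called, and *FASN* overlapped in both.

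All 3 desaturases were called lower in both comparisons of shD3 #1, where 14.6% (shD3 #1) and 14.1% (deep shD3 #1) of all genes tested were. *SCD* (chr10:100347233-100364826, plus strand) had 1936, 2012 and 1849 cpm in the sh1Control libraries and 721, 718 and 656 cpm in the shD3 #1 libraries (log2 fold change -1.47 ± 0.06, adjusted p = 2.19e-11) and 3602, 3324 and 3506 cpm in the deep sh1Control libraries and 1918, 1963 and 2124 cpm in the deep shD3 #1 libraries (log2 fold change -0.80 ± 0.05, adjusted p = 1.02e-08). In siD3 #3 it had 1782 and 1951 cpm in the siControl libraries and 821, 883 and 826 cpm in the siD3 #3 libraries (log2 fold change -1.15 ± 0.11, adjusted p = 2.00e-04), and in none of the 3 did the groups overlap. In shD3 #4 it had 1414, 1507 and 1754 cpm in the sh4Control libraries and 1739.9, 1746 and 1583 cpm in the shD3 #4 libraries (log2 fold change 0.12 ± 0.08, adjusted p = 0.256), within the spread of the controls. *FADS1* and *FADS2*, the desaturases of polyunsaturated fatty acids, which lie next to each other on chromosome 11, had log2 fold changes of -0.95 ± 0.05 and -1.18 ± 0.06 in shD3 #1 and -0.63 ± 0.05 and -0.74 ± 0.05 in deep shD3 #1. In siD3 #3 both passed the p threshold with -0.58 ± 0.09 and -0.47 ± 0.10, just short of the threshold of size for *FADS1*, which DESeq2 called, and in shD3 #4 *FADS2* did so with -0.26 ± 0.07.

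The elongases differed. *ELOVL7* (chr5:60751791-60844274, minus strand), an elongase of long saturated chains, had 34.6, 37.5 and 30.9 cpm in the sh1Control libraries and 5.42, 5.43 and 7.43 cpm in the shD3 #1 libraries (log2 fold change -2.53 ± 0.12, adjusted p = 6.59e-11). In deep shD3 #1 it had 46.5, 48.8 and 43.5 cpm in the deep sh1Control libraries and 9.81, 10.1 and 9.17 cpm in the deep shD3 #1 libraries (log2 fold change -2.26 ± 0.07, adjusted p = 1.72e-12), and in both this was the largest fall of the 36 genes, to 17.8% and 20.9% of the controls. In shD3 #4 it had 33.0, 30.3 and 34.2 cpm in the sh4Control libraries and 25.8, 23.9 and 26.8 cpm in the shD3 #4 libraries (log2 fold change -0.35 ± 0.07, adjusted p = 4.80e-04), the largest negative change there, without overlap but not called, and in siD3 #3 41.7 and 31.3 cpm in the siControl libraries and 36.7, 35.5 and 37.9 cpm in the siD3 #3 libraries (log2 fold change 0.01 ± 0.13, adjusted p = 0.981), with overlap. *ELOVL6*, which makes stearate from palmitate, was called lower in shD3 #1 (-1.05 ± 0.08) and deep shD3 #1 (-0.88 ± 0.05). *ELOVL5*, which extends polyunsaturated chains, changed by less than the threshold in every comparison. *LPIN1*, a phosphatidate phosphatase, had the largest positive change of the branch in siD3 #3, with 63.2 and 61.0 cpm in the siControl libraries and 75.1, 79.9 and 92.0 cpm in the siD3 #3 libraries (log2 fold change 0.41 ± 0.11, adjusted p = 0.0226), not called.

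**Figure D3:**
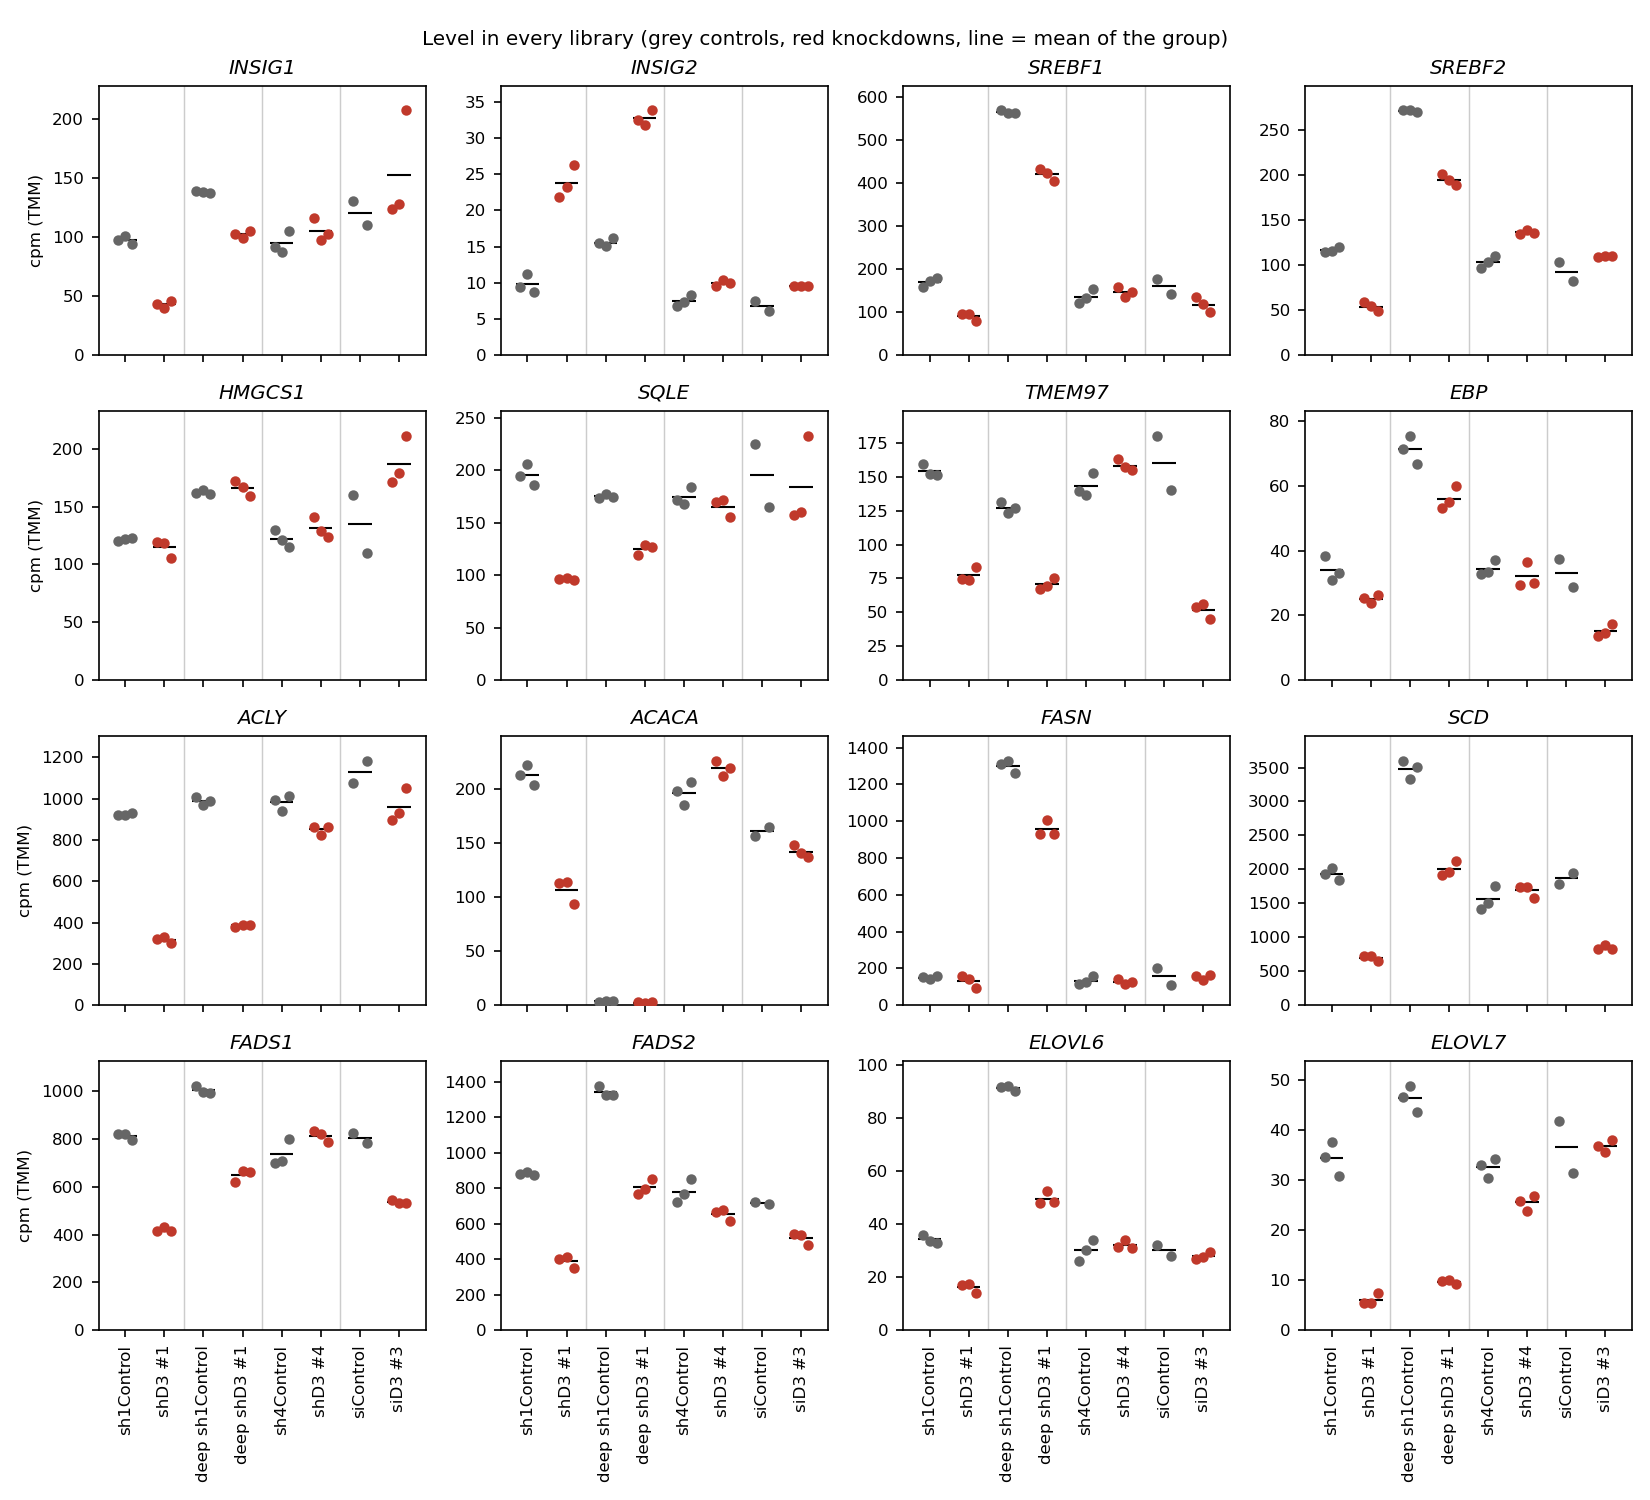
Level of 16 of the genes in each library (y axis, cpm after TMM normalisation, from 0), with grey points for controls, red points for knockdowns and a line at the mean of each group. The red points of *ELOVL7*, *ACLY* and *SCD* lie far below the grey ones in shD3 #1 and deep shD3 #1, those of shD3 #4 lie near their controls, and *ACACA* and *FASN* show the gap in level between the tables.

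By branch, the median log2 fold change in shD3 #1 was -0.45 for the sterol genes, -0.91 for the regulators and -0.97 for the fatty acid genes. Of these, 9 of 19, 3 of 5 and 7 of 12 were called lower, against 14.6% of all genes tested. For deep shD3 #1 the medians were -0.37, -0.43 and -0.58, with 3, 0 and 6 called lower, against 14.1%. The sterol count there lies near that share. For shD3 #4 the medians were 0.05, 0.26 and 0.09, and for siD3 #3 -0.09, 0.24 and -0.14. Leaving out 1 library at a time moved the siD3 #3 medians to between -0.30 and 0.12 (sterol), 0.052 and 0.41 (regulators) and -0.20 and -0.0082 (fatty acid), and the shD3 #4 medians to between 0.011 and 0.092, 0.21 and 0.32, and 0.042 and 0.15 in the same order. The difference between branches was not tested.

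The siRNA comparison rests on a pair of controls that differed in these genes. All 19 sterol genes and all 5 regulators were higher in siControl replicate 1 than in replicate 2, with median log2 differences of 0.30 and 0.32, while 50.8% of all genes tested were, with a median of 0.0040. Over the 21 pairs of libraries within the other 7 groups, the median difference of the sterol genes was at most 0.26 in size. That pair was replicates 1 and 3 of siD3 #3, of which replicate 3 was the higher for 17 of 19 genes. Without siControl replicate 1, the sterol median of siD3 #3 became 0.12 and *HMGCS1* was called higher (0.76), and without replicate 2 the median was -0.30. Among the sh4Control libraries, replicate 3 was above replicates 1 and 2 in all 5 regulators (median log2 difference of replicate 1 minus 3 -0.20 and of 2 minus 3 -0.22) and in all 12 fatty acid genes (-0.092 and -0.16). In siD3 #3, the calls of *TMEM97*, *EBP* and *SCD* held in both cases, at log2 fold changes of -1.81 to -1.45, -1.32 to -0.93 and -1.22 to -1.09.

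The differences between knockdowns were tested directly in 1 fit of the 17 first libraries. Between shD3 #1 and shD3 #4, the change of 25 of the 36 genes differed, 24 of them lower in shD3 #1 and *INSIG2* higher, against 39.4% of the 18672 genes tested. These were 13 of 19 sterol genes, 4 of 5 regulators and 8 of 12 fatty acid genes. *SREBF2* differed by -1.51 ± 0.11 (adjusted p = 3.03e-09), *SCD* by -1.59 ± 0.11 (adjusted p = 1.75e-09) and *ACLY* by -1.33 ± 0.10 (adjusted p = 2.97e-09). For *HMGCS1* the difference was -0.19 ± 0.15 (adjusted p = 0.342) and for *FASN* -0.12 ± 0.25 (adjusted p = 0.734), which did not pass.

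Between siD3 #3 and shD3 #1, 25 genes differed as well, 21 of them less lowered or more raised in siD3 #3 and 4 the other way, *EBP*, *TMEM97*, *INSIG2* and *SCAP*, against 37.3% of all genes. *INSIG1* differed by 1.54 ± 0.21 (adjusted p = 9.08e-06) and *ACLY* by 1.32 ± 0.11 (adjusted p = 9.86e-09). Between siD3 #3 and shD3 #4, 12 genes differed, all lower in siD3 #3, against 26.8% of all genes. *SCD* differed by -1.25 ± 0.12 (adjusted p = 7.70e-08) and *FADS1* by -0.72 ± 0.10 (adjusted p = 1.00e-05). These contrasts share groups with each other, so their counts are not independent.

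**Figure D4:**
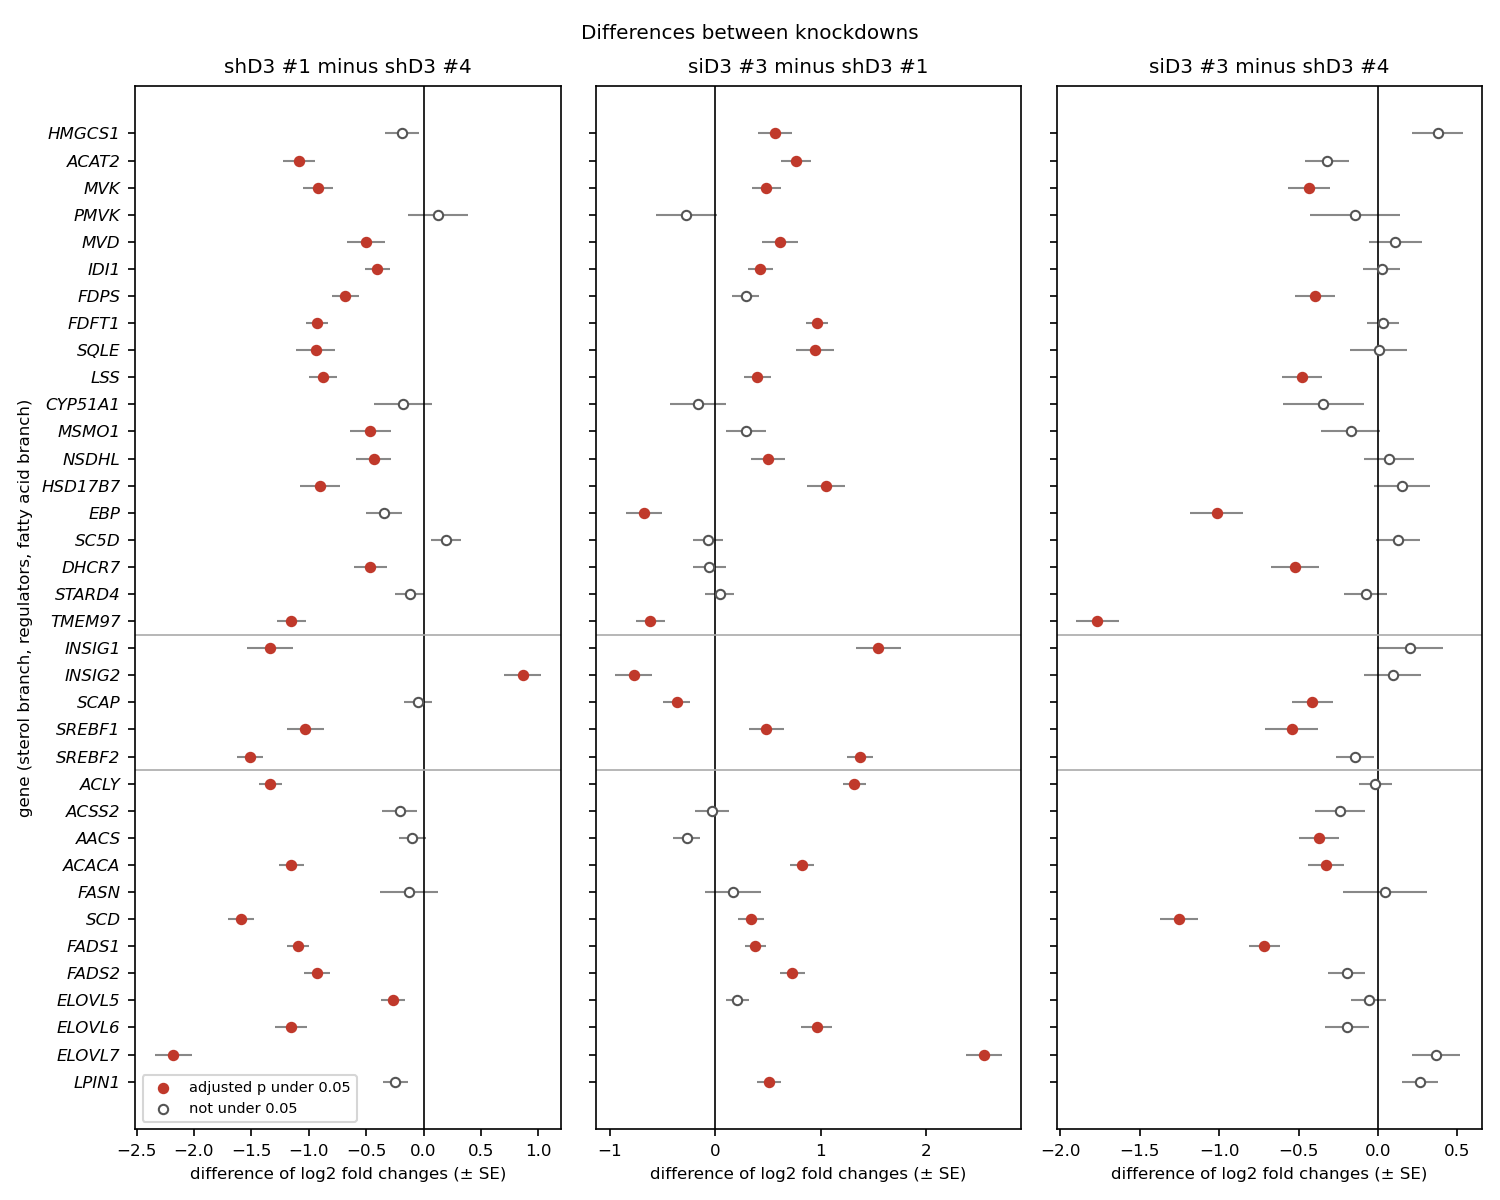
Difference of log2 fold changes between 2 knockdowns (x axis) for each of the 36 genes (y axis, grouped by branch), with bars of 1 SE and red points where the adjusted p was under 0.05. In the shD3 #1 minus shD3 #4 panel 24 red points lie left of 0 and *INSIG2* lies right at 0.86, and in the siD3 #3 minus shD3 #4 panel *TMEM97* lies farthest left at -1.77.

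Around the synthesis genes, 7 further lists of lipid genes were counted in the same fits. Their counts are to be read beside the shares of all genes called higher and lower, 14.5% and 14.6% (shD3 #1), 15.0% and 14.1% (deep shD3 #1), 8.0% and 4.49% (shD3 #4) and 12.5% and 9.42% (siD3 #3), to which several of them lie close. Of 17 genes of SREBP transport and cleavage, the calls were 2 higher and 4 lower (shD3 #1), 3 and 4 (deep shD3 #1), 1 and 0 (shD3 #4) and 1 and 1 (siD3 #3), with medians of 0.20, 0.21, 0.07 and 0.04 in that order. *MBTPS2*, the site-2 protease that frees the SREBP fragment, was the lowest in both comparisons of shD3 #1, at -1.25 ± 0.12 and -1.23 ± 0.04. *SEC24A*, a coat protein of the vesicles that leave the endoplasmic reticulum, was the highest in both, at 0.85 ± 0.07 and 1.06 ± 0.05, and was also called in siD3 #3 at 0.59 ± 0.10. *SEC24D* was the called gene of shD3 #4 (0.59 ± 0.07), and *ERLIN1*, a protein of sterol-sensing membrane domains, the lowest of siD3 #3 (-1.19 ± 0.15).

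Of 9 genes of sterol efflux and the liver X receptors (8 tested in the deep table), the calls were 2 higher and 1 lower (shD3 #1), 2 and 1 (deep shD3 #1), 1 and 0 (shD3 #4) and 2 and 0 (siD3 #3), with medians of 0.27, 0.00, 0.06 and 0.14. *ABCG1*, a sterol exporter, rose in shD3 #1 from 5.45 ± 0.860 to 12.4 ± 1.03 cpm (SD, n = 3 and 3) and in deep shD3 #1 by 2.29 ± 0.10 (adjusted p = 1.61e-10), the largest rise of the 7 lists there. *ABCA1*, the other main exporter, was called higher in siD3 #3, by 2.31 ± 0.26 (adjusted p = 5.89e-04), and in shD3 #1 (0.93). It was not called in deep shD3 #1 (-0.19) or in shD3 #4 (-0.03). *NR1H3*, the receptor LXR alpha, fell by 1.46 ± 0.14 in shD3 #1 and 2.04 ± 0.10 in deep shD3 #1 on the log2 scale. *MYLIP*, the ligase that degrades lipoprotein receptors, was the called gene of shD3 #4 (0.95 ± 0.08).

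For sterol uptake, endosomal transport and esterification the calls among 12 genes (11 tested in the first table) were 2 higher and 5 lower (shD3 #1), 0 and 4 (deep shD3 #1), 1 and 0 (shD3 #4) and 1 and 1 (siD3 #3), with medians of -0.36, -0.37, 0.23 and 0.32. *LIPA*, the lysosomal lipase that frees cholesterol, fell in shD3 #1 (-0.99 ± 0.07) and deep shD3 #1 (-1.02 ± 0.05) and rose in siD3 #3 (0.74 ± 0.10). Of 11 genes of isoprenoid branches, the calls were 1 higher and 3 lower (shD3 #1), 0 and 3 (deep shD3 #1), 0 and 0 (shD3 #4) and 0 and 4 (siD3 #3), with medians of -0.38, -0.44, 0.09 and -0.01, and *NUS1*, a subunit of dolichol synthesis, was the lowest in shD3 #1 at -1.55 ± 0.14. *FNTB*, a subunit of farnesyltransferase, had the lowest fitted value of the 7 lists in deep shD3 #1 at -2.18 ± 0.40, from a mean of only 0.637 cpm against 11.4 cpm in sh1Control, so its level also differed between the tables.

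The remaining 26 genes of fatty acid synthesis (23 to 25 tested) had calls of 2 higher and 3 lower (shD3 #1), 1 and 1 (deep shD3 #1), 1 and 1 (shD3 #4) and 3 and 2 (siD3 #3), with medians of 0.00, -0.10, -0.05 and 0.01. *ELOVL2*, which extends long polyunsaturated chains, rose in shD3 #1 (1.18 ± 0.07) and deep shD3 #1 (1.59 ± 0.05) and fell in shD3 #4 (-0.64 ± 0.09) and siD3 #3 (-1.86 ± 0.24). *ACSL5*, an acyl-CoA synthetase, had the largest rise of the 7 lists in shD3 #4 (1.64 ± 0.17). *ACSL6* had the largest fitted value in siD3 #3, at mean levels of 0.027 cpm in siControl and 0.557 cpm in the knockdown, and no fold is given against so low a control.

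Glycerolipid and droplet genes, 20 listed and 19 tested, had calls of 1 higher and 2 lower (shD3 #1), 2 and 6 (deep shD3 #1), 0 and 0 (shD3 #4) and 3 and 0 (siD3 #3), with medians of 0.11, 0.10, 0.01 and 0.18. *GPAT3*, which starts glycerolipid synthesis, rose most in shD3 #1 (log2 fold change 1.68 ± 0.07, adjusted p = 2.83e-11). For fatty acid oxidation, the calls among 20 genes were 5 higher and 4 lower (shD3 #1), 3 and 5 (deep shD3 #1), 1 and 1 (shD3 #4) and 0 and 0 (siD3 #3), with medians of 0.31, 0.11, 0.21 and -0.02. *CPT1A*, the gate of fatty acid entry into mitochondria, fell from 112 ± 1.46 to 19.3 ± 3.25 cpm in shD3 #1 (SD, n = 3 and 3; log2 fold change -2.51 ± 0.09, adjusted p = 6.56e-12), the largest fall of the 7 lists there. It fell in deep shD3 #1 as well, with a log2 fold change of -1.82 ± 0.05 (adjusted p = 7.14e-13). *ACADL*, an acyl-CoA dehydrogenase, was the lowest called gene of shD3 #4 at -0.73 ± 0.27 (adjusted p = 0.0301), near 1.08 cpm. No gene of the 7 lists was called the same way in all 3 knockdowns of the first libraries.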

How the data were processed

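RNA-seq of A549 cells with and without *THUMPD3* knockdown was analysed from 2 tables of read counts that the authors deposited, raw and per gene, 1 for 17 libraries and 1 for 6 deeper ones. The RNA was rRNA-depleted and the libraries directional. The submitters' processing notes name Trimmomatic 0.40, STAR 2.7.10a and GRCh38.p14, while the counting strand is not given in the sources used here. The study's methods name a RefSeq annotation, whereas the first table lists Ensembl identifiers, 42054 of which were named by a gene table. The study describes a further siControl library, which was not analysed here.

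Genes were kept by filterByExpr and scaled by TMM, and each knockdown was compared with its own control by edgeR's quasi-likelihood test (edgeR 4.0.16, limma 3.58.1, R 4.3.3), with Benjamini-Hochberg adjustment over all genes tested. Genes were called when the adjusted p was under 0.05 and the change 1.5-fold or more. Differences between knockdowns were contrasts in 1 fit of the 17 libraries. DESeq2 (1.42.0 here), the study's own tool, other filters and scalings, a replicate block and leaving out each library were alternatives. Levels are cpm (deposited counts over TMM-scaled library sizes). The scripts were tested on simulated data. Named genes were the listed members and, in the further lists, the highest and lowest called genes and those called in opposite directions. The members and lists were chosen with earlier results of these data known. Promoters were taken from RefSeq and exon overlaps from GENCODE 44. Library totals of 9854294 to 59974740 counts limit precision by counting error, and every pair of replicates within a group differed by more than counting noise (chi-square of 2.02 to 46.0 per gene), while pairs across groups were not compared. The 2 highest values, 40.7 and 46.0, were those of siD3 #3 replicate 3 against replicates 1 and 2, which gave 4.60 between themselves. The next highest pair, replicates 1 and 3 of deep shD3 #1, gave 20.6.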

Additional observations from a re-analysis of the deposited data

Results flagged for a closer look

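In the 3 knockdowns of the first libraries, the change of listed genes differed by a test of the difference itself. The change of 25 genes differed between shD3 #1 and shD3 #4, of 25 between siD3 #3 and shD3 #1, and of 12 between siD3 #3 and shD3 #4, all of 36 and at an adjusted p under 0.05 in edgeR's quasi-likelihood test. Over all 18672 genes the shares were 39.4%, 37.3% and 26.8%, so that the last count lies near the share of all genes. Leaving out 1 library at a time, the 3 counts ranged from 22 to 27, 19 to 25 and 8 to 14 in that order. *ELOVL7* differed most, by -2.18 ± 0.16 (adjusted p = 3.09e-09) for shD3 #1 minus shD3 #4 and 2.54 ± 0.17 (adjusted p = 1.11e-09) for siD3 #3 minus shD3 #1. *INSIG2* differed in the other direction, by 0.86 ± 0.16 (adjusted p = 2.19e-04) and -0.77 ± 0.18 (adjusted p = 0.00166) in the same contrasts. *TMEM97* had the largest difference for siD3 #3 minus shD3 #4, at -1.77 ± 0.13 (adjusted p = 2.27e-09).

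Among the genes of the further lipid lists that were called in opposite directions, all had a difference past the threshold between some pair of first knockdowns. *ELOVL2* differed by 1.82 ± 0.19 (adjusted p = 2.17e-07) for shD3 #1 minus shD3 #4 and by -3.01 ± 0.21 (adjusted p = 1.30e-09) for siD3 #3 minus shD3 #1. *PPARGC1A*, a coactivator of fatty acid oxidation, differed by -2.34 ± 0.37 (adjusted p = 3.28e-05) for shD3 #1 minus shD3 #4. *LIPA* differed by 1.74 ± 0.11 (adjusted p = 3.60e-10) and *PDSS2*, a subunit of coenzyme Q side chain synthesis, by -1.33 ± 0.18 (adjusted p = 5.71e-06) for siD3 #3 minus shD3 #1. *PLIN4*, a lipid droplet protein, was called higher in siD3 #3 (1.5 ± 0.40, from 0.641 cpm) and lower in deep shD3 #1 (-1.61 ± 0.15) and differed by 1.80 ± 0.50 (adjusted p = 0.00714) for siD3 #3 minus shD3 #1, but for shD3 #1 minus shD3 #4 it did not pass at -0.26 ± 0.46 (adjusted p = 0.701). The knockdowns differ in reagent, control and remaining *THUMPD3* (51.3% of the control level in shD3 #1, 31.4% in shD3 #4 and 17.1% in siD3 #3). Between siD3 #3 and the shRNAs, harvest day differs as well. These cannot be told apart here. Groups of 2 or 3 libraries were too small for a test of outlying samples.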

How the results depend on the processing

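Each result was recomputed with DESeq2, with DESeq2's size factors, without the filter on low counts, with a minimum of 10 counts, with the replicate number as a block, in 1 fit of the 17 first libraries and without each library in turn. The 34 calls of single genes gave 394 such values, of which 387 kept direction and call, 7 lost the call and 0 turned, and the calls lost were those of *LSS* and *MVD* in shD3 #1 and *ACAT2* in deep shD3 #1, each near the threshold of size. In siD3 #3, 2 fatty acid genes were called lower, in place of 1, with DESeq2, with its size factors, without the filter and in the fit of 17 libraries (leaving out a library, 1 to 2), the second being *FADS1*. In the sterol branch 1 gene, *STARD4*, was called higher in deep shD3 #1 with DESeq2 and with its size factors (leaving out a library, 0 to 1), and in siD3 #3 leaving out a library gave 0 to 1, *HMGCS1* without siControl replicate 1. Without the filter the regulator median of deep shD3 #1 was -0.45. Leaving out libraries moved the sterol median between -0.52 and -0.42 in shD3 #1 and between -0.30 and 0.12 in siD3 #3, the regulator median between -0.95 and -0.84 in shD3 #1 and between -0.44 and -0.40 in deep shD3 #1, and the fatty acid median of deep shD3 #1 between -0.61 and -0.57. Changes near 0 that were not called turned sign. With at least 10 counts, *IDI1* was 0.012 and *FASN* 0.015 in siD3 #3. Leaving out libraries, the lowest and highest values of *FASN* were -0.34 and 0.0047 (shD3 #1), -0.16 to 0.070 (shD3 #4) and -0.40 to 0.45 (siD3 #3). In siD3 #3 *IDI1* ranged over -0.19 to 0.12 and *SQLE* over -0.31 to 0.14. The causes were not tested. Without either siControl library the other is alone, and its spread is assumed to be that of the knockdown libraries.

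Replicate numbers are shared between groups, but nothing says that they pair libraries. Same-numbered libraries deviated together with correlations of -0.18 to 0.22, and only in shD3 #4 did all 3 knockdown libraries correlate best with the control of their own number, so they were not treated as pairs. With the replicate block, calls over all genes went from 4785 to 4772 (shD3 #1), 2061 to 2060 (shD3 #4), 3739 to 4270 (siD3 #3) and 5461 to 5296 (deep shD3 #1), the sterol median of siD3 #3 was -0.28 and *ACAT2* was called lower there (-0.62). The 2 control libraries in siD3 #3, 1 cell line and exact tests that cannot pass with 3 libraries a group limit these results. At this depth the listed genes had enough counts that the filter removed none of them.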
